A study of Mus musculus with 6 samples.

Results

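The collagen cross-linking enzymes are the lysyl hydroxylases (Plod1, Plod2 and Plod3) and the lysyl oxidases (Lox, Loxl1, Loxl2, Loxl3 and Loxl4). They were taken by gene name from a table of 40166 mouse genes, which held all 8. Each of the 8 also passed the filter on low counts, a median of at least 5 counts in at least 1 group, as did 15355 genes in all.

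Bulk RNA sequencing was performed on 6 tumors of YUMM3.3, a Braf-mutant mouse melanoma line, grown under the skin of young adult C57BL/6 mice. Once tumors averaged about 100 mm3, mice received water (vehicle) or Rigosertib (RGS), a small-molecule RAS mimetic, at 300 mg/kg. Both were given by oral gavage in 100 μL on 5 days of each week, and the tumors were taken after 17 days. From each group 3 tumors were sequenced, and the labels do not say which mouse each came from. The comparison of RGS with vehicle asks which transcripts differed under the drug.

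Lysyl hydroxylases act inside the cell, in the endoplasmic reticulum, where they convert lysines of new procollagen chains to hydroxylysines. Lysyl oxidases are copper enzymes that act mostly outside the cell, where they oxidize lysines and hydroxylysines of collagen and elastin to reactive aldehydes that condense into covalent cross-links. Cross-links that start from hydroxylysine are more stable, and heavily cross-linked collagen is known to stiffen the matrix of solid tumors.

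Sequencing depth differed between the groups. The vehicle tumors 7, 8 and 9 had 32555494, 26652104 and 22793087 counts. The RGS tumors 10, 11 and 12 had 21617368, 13837932 and 17768758 counts. All vehicle libraries were thus the deeper ones. With every library thinned to the smallest, Plod1 was at 1.07, Plod3 at 0.86 and Loxl4 at -1.32 (log2 fold change), and the same 3 enzymes were called. Mitochondrial genes took 2.13% to 3.20% of the counts in vehicle and 5.60% to 8.22% in RGS. With these genes left out of the fit, Plod1 was at 1.05, Plod3 at 0.84 and Loxl4 at -1.32 (log2 fold change), and the same 3 enzymes were called. Ribosomal-protein genes took 5.12%, 7.62% and 9.38% in vehicle and 2.81%, 2.96% and 3.31% in RGS, with no overlap, and the part of this difference in the results was not tested. A count of 0 allows up to 3 counts, which is 0.0856 CPM in the deepest library and 0.226 CPM in the shallowest (CPM is scaled by library size with TMM factors). Such floors cover counting error only, while the confidence intervals of the fold changes come from the edgeR fit and include the spread between tumors.

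The tissue label was set against marker genes. Of the melanoma markers Sox10, Mitf and Pmel, Sox10 had 0 counts in all tumors but RGS 11, where it had 18. Mitf had between 74 and 261 counts and Pmel between 0 and 25. The pigment genes Mlana, Tyr and Dct had 0 counts in all 6 tumors. The leukocyte marker Ptprc, the macrophage marker Adgre1 and the T-cell genes Cd3e, Cd3d and Cd8a were also at 0 in every tumor. The lineage markers that the label of a melanoma tumor calls for were thus largely absent, as were these markers of leukocytes, macrophages and T cells. Of the other markers in the leukocyte and macrophage lists, only Laptm5, Cd53 and Cd68 had counts in every tumor. Laptm5 was at 153 to 952 CPM, Cd53 at 29.3 to 86.3 CPM and Cd68 at 58.8 to 87.7 CPM. Coro1a had at most 20 counts per tumor, Mrc1 at most 7, C1qa at most 4, Lyz2 at most 2, and C1qb and Csf1r at most 1.

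Of the 8 enzymes, 2 rose in RGS (Plod1 and Plod3) and 1 fell (Loxl4) at an adjusted p under 0.05. Among all tested genes, 16.3% were called higher and 16.5% lower. In 6 of the 8 the CPM of the groups did not overlap, and this held for 45.8% of all tested genes. The 3 lysyl hydroxylases had 2 higher and 0 lower, with a median log2 fold change of 0.84, and the 5 lysyl oxidases had 0 higher and 1 lower, with a median of -0.47, against -0.05 over all tested genes. That median is the value of Loxl2 alone, which rests on 4 to 57 counts per tumor and ran from -1.15 to -0.10 with 1 tumor left out. Beside the shares above, 1 of 8 lower is near the background, and neither it nor 2 of 8 higher is a result about the family. No test set the enzymes apart from other genes. The p-values measure the spread between these tumors, and nothing in the labels says more than that they are separate samples. On 1 simulated data set, with far fewer changed genes than are called here, the share of false calls with edgeR was above what the threshold allows. Whether this holds at the shares called here was not tested. Adjusted p-values near 0.05 and the shares of genes called are thus to be read with care. In bulk RNA, fewer cells of a type and less RNA per cell cannot be told apart.

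**Figure D1:**
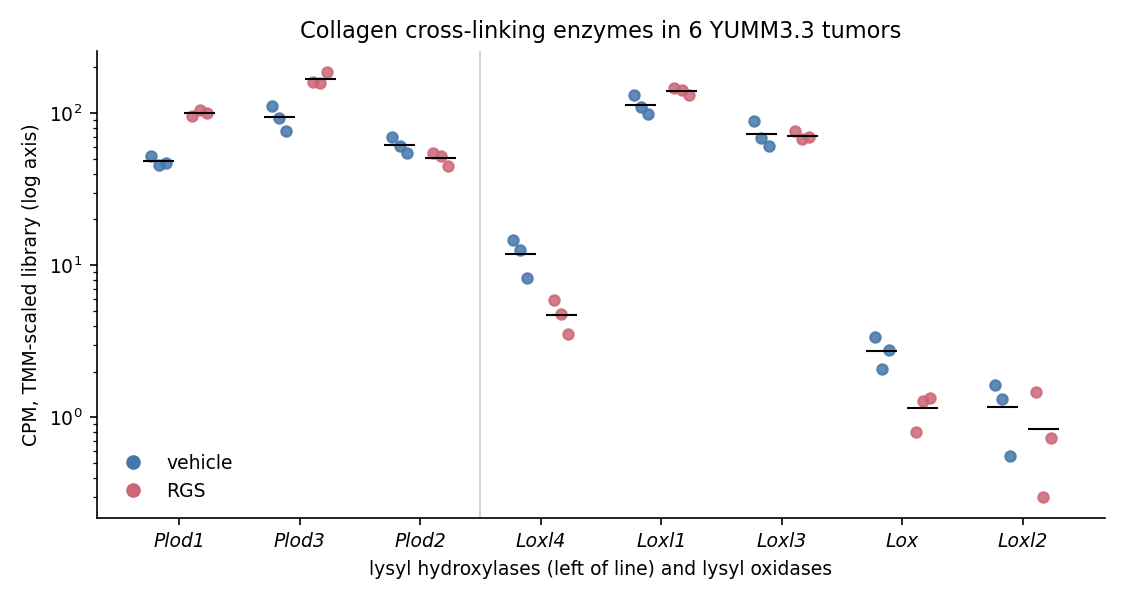
Level of each enzyme in each tumor in CPM of the TMM-scaled library, on a log axis, with vehicle in blue, RGS in red and group means as black bars. All 3 RGS tumors lie above all 3 vehicle tumors for Plod1, Plod3 and Loxl1, and below them for Plod2, Loxl4 and Lox.

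Among the lysyl hydroxylases, Plod1 hydroxylates lysines in the triple-helical part of collagen. The gene (ENSMUSG00000019055.15) lies at chr4:147909753-147936767 on the minus strand of GRCm38. Its level was 51.9, 45.9 and 46.9 CPM in vehicle tumors 7, 8 and 9, and 95.5, 104 and 99.9 CPM in RGS tumors 10, 11 and 12. The tumors of each group lay close together, and the groups were far apart. The means were 48.2 ± 3.19 CPM in vehicle and 99.8 ± 4.35 CPM in RGS (SD, n = 3). Plod1 rose 2.07-fold, a log2 fold change of 1.05 ± 0.16 (SE), with an adjusted p of 6.23e-05 (edgeR quasi-likelihood F test, Benjamini-Hochberg). The 95% confidence interval of the log2 fold change ran from 0.71 to 1.39.

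Promoter windows are shown for the called enzymes Plod1 and Loxl4, since both differed between the groups in opposite directions. Each window holds 240 bases, from 250 to 11 before the start in RefSeq, is written 5′ to 3′ on the gene's own strand, and comes from RefSeq GRCm38.p6. An entry was matched for 3 of the 8 enzymes (Loxl4, Plod1 and Plod3). Capitals mark the core of the hypoxia response element, ACGTG or GCGTG, on either strand. The Plod1 window lies at chr4:147936787-147937026, outside exons of GENCODE M21.
Plod1: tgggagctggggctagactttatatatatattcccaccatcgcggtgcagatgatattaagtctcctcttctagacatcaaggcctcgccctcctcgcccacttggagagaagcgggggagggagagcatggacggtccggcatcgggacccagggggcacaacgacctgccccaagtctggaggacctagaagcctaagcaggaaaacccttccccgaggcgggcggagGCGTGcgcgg
This window held 1 hypoxia core, which 37.6% of the 32534 promoter windows of that length also held. It had 1 match of the GC box GGGCGG (31.5% of windows) and 1 of the SMAD motif CAGAC (40.9%). Neither the AP-1 motif TGANTCA (6.6%) nor the TEAD motif GGAATG (12.2%) was found. All motifs were searched on both strands, overlapping matches were each counted, and a match describes letters and not a bound site.

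Plod3 hydroxylates lysines and also adds sugars to hydroxylysine. The gene (ENSMUSG00000004846.10) lies at chr5:136987019-136996648 on the plus strand. It had 112, 93.0 and 76.8 CPM in vehicle tumors 7, 8 and 9, and 161, 159 and 186 CPM in RGS tumors 10, 11 and 12. RGS 12 was the highest and vehicle 9 the lowest, and the groups did not overlap. The mean was 93.9 ± 17.6 CPM in vehicle and 169 ± 15.5 CPM in RGS (SD, n = 3). Plod3 rose by a log2 fold change of 0.84 ± 0.17 (SE), with an adjusted p of 7.54e-04 (edgeR quasi-likelihood F test, Benjamini-Hochberg). The value is uncertain to the extent that 11.7% of the exon bases of Plod3 also belong to Znhit1 on the opposite strand, because the strand setting of the counting is not given in the sources used here. Znhit1 itself had 314 to 627 counts per tumor, fewer than the 1786 to 3922 of Plod3, and was not called (log2 fold change 0.15 ± 0.23, SE). The Plod3 window at chr5:136986769-136987008 held 4 hypoxia cores and no match of the other motifs, and 198 of its 240 bases are exon bases of Znhit1.

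Plod2 hydroxylates lysines in the telopeptides, the ends of the collagen molecule from which the stable cross-links start. The gene (ENSMUSG00000032374.14) lies at chr9:92542223-92608428. Its level was 69.1, 60.6 and 54.9 CPM in vehicle tumors 7, 8 and 9, and 54.6, 52.2 and 44.6 CPM in RGS tumors 10, 11 and 12. The vehicle tumors were all above the RGS tumors, but vehicle 9 and RGS 10 nearly met. The log2 fold change of -0.29 ± 0.17 (SE) did not pass, with an adjusted p of 0.223 (edgeR quasi-likelihood F test, Benjamini-Hochberg). Its 95% confidence interval ran from -0.65 to 0.08. The unnamed model Gm38391 shares 6.42% of the exon bases of Plod2 on the opposite strand and had 2 to 23 counts per tumor.

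**Figure D2:**
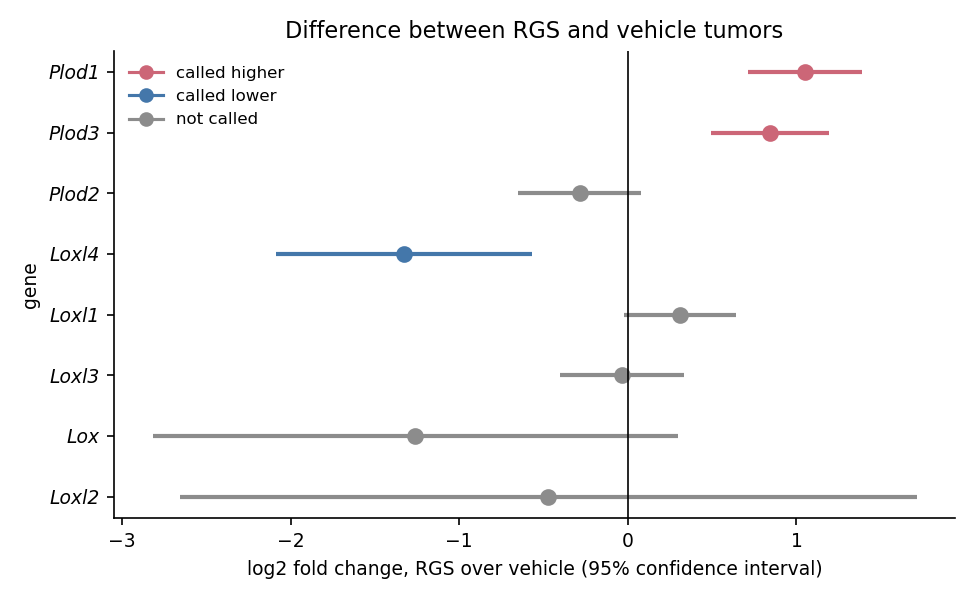
Log2 fold change of each enzyme, RGS over vehicle, with its 95% confidence interval from edgeR's quasi-likelihood fit. Intervals of Plod1, Plod3 and Loxl4 stay clear of 0, and those of Lox and Loxl2 are the widest.

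The hydroxylases were compared with each other per length, as CPM per kilobase of the gene length in the table. In vehicle the order of mean levels was Plod3 (20.8 ± 3.89), Plod2 (11.4 ± 1.33) and Plod1 (7.13 ± 0.472 CPM per kilobase, SD, n = 3). In RGS it was Plod3 (37.3 ± 3.42), Plod1 (14.8 ± 0.643) and Plod2 (9.36 ± 0.967 CPM per kilobase, SD, n = 3). Plod1 and Plod2 thus changed places, and neighbours in both orders were further apart than their SDs. The ratio of Plod1 to Plod2 was 0.598, 0.604 and 0.681 in vehicle tumors 7, 8 and 9, and 1.39, 1.59 and 1.78 in RGS tumors 10, 11 and 12. It lay under 1 in every vehicle tumor and over 1 in every RGS tumor. The ratio of Plod3 to Plod1 ran from 2.45 to 3.23 in vehicle and from 2.28 to 2.79 in RGS, so the groups overlapped. These ratios were chosen after the values were seen and are given with no test.

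As shares of the summed hydroxylase level in CPM per kilobase, Plod2 made up 29.1 ± 0.763% in vehicle and 15.3 ± 2.14% in RGS (SD, n = 3). The share of Plod1 was 18.3 ± 1.80% and 24.1 ± 1.38%. That of Plod3 was 52.6 ± 2.53% and 60.6 ± 3.10%. None of the 3 shares overlapped between the groups. The sum itself was 45.3, 38.6 and 34.1 CPM per kilobase in vehicle tumors 7, 8 and 9, and 59.8, 60.2 and 64.3 in RGS tumors 10, 11 and 12. All RGS tumors were above all vehicle tumors, also with RLE factors, upper-quartile factors or library size only.

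**Figure D3:**
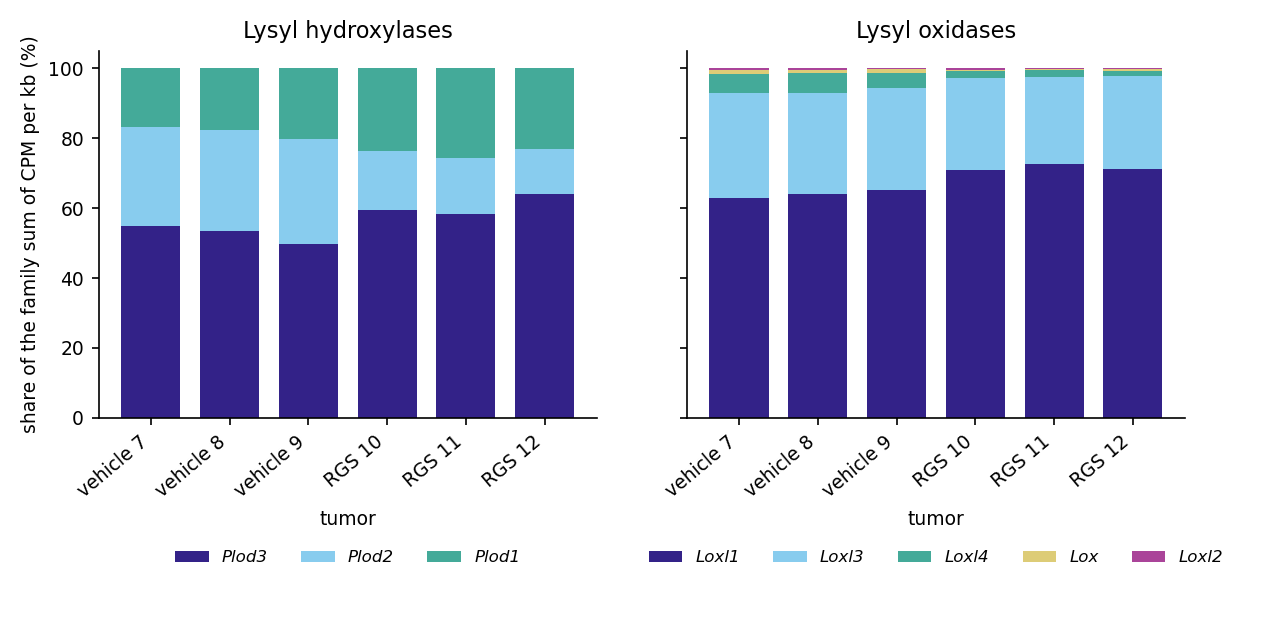
Share of each enzyme in the summed CPM per kilobase of its family, in percent, stacked for each of the 6 tumors. The Plod2 segment is narrower in the RGS tumors, at 12.9% to 16.9% against 28.3% to 29.9% in vehicle, and Loxl1 is the widest segment among the lysyl oxidases in every tumor.

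Of the lysyl oxidases, Loxl4 was called with all 6 tumors. Loxl4 is a secreted oxidase with scavenger-receptor domains. The gene (ENSMUSG00000025185.14) lies at chr19:42593982-42612813 on the minus strand. It had 14.7, 12.6 and 8.21 CPM in vehicle tumors 7, 8 and 9, and 5.87, 4.75 and 3.55 CPM in RGS tumors 10, 11 and 12. Vehicle 9 was the lowest of its group and still above RGS 10, the highest of the other. The mean was 11.9 ± 3.32 CPM in vehicle and 4.72 ± 1.16 CPM in RGS (SD, n = 3). Loxl4 fell by 1.33 on the log2 scale (SE 0.36), with an adjusted p of 0.00861 (edgeR quasi-likelihood F test, Benjamini-Hochberg). The window before its RefSeq start, chr19:42612817-42613056, lies outside exons of GENCODE M21 and is 75.8% G and C, against a median of 52.1% over all windows.
Loxl4: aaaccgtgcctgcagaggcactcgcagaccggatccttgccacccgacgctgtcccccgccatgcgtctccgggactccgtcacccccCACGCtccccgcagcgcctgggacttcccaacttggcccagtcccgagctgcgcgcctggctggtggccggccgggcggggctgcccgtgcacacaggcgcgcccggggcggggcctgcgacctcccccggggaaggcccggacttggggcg
It held 1 hypoxia core, 2 GC boxes and 1 SMAD motif, and neither the AP-1 nor the TEAD motif.

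Loxl1, which is known for its part in elastic fibers, was the most abundant lysyl oxidase per length. The gene (ENSMUSG00000032334.10) lies at chr9:58287738-58313186. It had 132, 109 and 98.5 CPM in vehicle tumors 7, 8 and 9, and 147, 143 and 132 CPM in RGS tumors 10, 11 and 12. Vehicle 7 and RGS 12 were nearly level, and the other vehicle tumors were lower. The log2 fold change was 0.31 ± 0.16 (SE) and did not pass, with an adjusted p of 0.144 (edgeR quasi-likelihood F test, Benjamini-Hochberg). Without vehicle 7 it was 0.44 and passed, with an adjusted p of 0.0206 (edgeR quasi-likelihood F test, Benjamini-Hochberg). With limma voom and quality weights it was 0.37 and also passed.

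Loxl3 is a further oxidase of fibrillar collagen. The gene (ENSMUSG00000000693.10) lies at chr6:83034173-83052562. Its level was 88.3, 69.0 and 61.0 CPM in vehicle tumors 7, 8 and 9, and 75.9, 68.0 and 69.3 CPM in RGS tumors 10, 11 and 12. The RGS tumors lay within the range of the vehicle tumors. The log2 fold change was -0.03 ± 0.17 (SE), with a 95% confidence interval from -0.40 to 0.33, and without vehicle 7 it was 0.13. Htra2, a mitochondrial protease gene on the opposite strand, shares 11.6% of the exon bases of Loxl3, so the value is uncertain. Htra2 had 777 to 2690 counts per tumor and fell by 0.74 on the log2 scale (SE 0.17).

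Lox, the founding member of the family, is secreted as a proenzyme and released by Bmp1. The gene (ENSMUSG00000024529.13) lies at chr18:52516069-52529867 in the table. It had 119, 58 and 64 counts in vehicle tumors 7, 8 and 9, and 17, 17 and 22 counts in RGS tumors 10, 11 and 12. In CPM these were 3.40, 2.07 and 2.75 in vehicle and 0.805, 1.28 and 1.35 in RGS. The RGS tumors were all lower, with no overlap. The log2 fold change of -1.26 ± 0.74 (SE) did not pass, with an adjusted p of 0.207 (edgeR quasi-likelihood F test, Benjamini-Hochberg). The 95% confidence interval ran from -2.82 to 0.30, which holds both a large decrease and no difference. Why the interval was this wide was not tested.

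Loxl2, which oxidizes type IV collagen of basement membranes, had the lowest mean level per length of the 8 in both groups. The gene (ENSMUSG00000034205.16) lies at chr14:69609068-69695834. It had 57, 37 and 13 counts in vehicle tumors 7, 8 and 9, and 31, 4 and 12 counts in RGS tumors 10, 11 and 12. The groups overlapped, and RGS 11 was just above the floor of 3 counts. The log2 fold change was -0.47 ± 1.04 (SE), and its 95% confidence interval ran from -2.66 to 1.71. The antisense gene Gm27177 shares 5.57% of its exon bases and had 4 counts in vehicle 9 and 19 in RGS 12, which makes the value more uncertain.

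Per length, the mean levels of the lysyl oxidases had one order in both groups. In vehicle the mean levels were 34.4 ± 5.22 for Loxl1, 15.8 ± 3.05 for Loxl3 and 2.81 ± 0.789 CPM per kilobase for Loxl4 (SD, n = 3). Lox (0.569 ± 0.138) and Loxl2 (0.216 ± 0.102 CPM per kilobase) followed. In RGS, Lox (0.238 ± 0.0614) and Loxl2 (0.154 ± 0.109 CPM per kilobase) were within their spread of each other. In RGS 10, Loxl2 (0.272) lay above Lox (0.167 CPM per kilobase). The share of Loxl1 in the family sum was 64.0 ± 1.22% in vehicle and 71.5 ± 1.02% in RGS, and that of Loxl4 was 5.18 ± 0.805% and 1.87 ± 0.363% (SD, n = 3). The sum over the family was 45.7 to 63.8 CPM per kilobase in vehicle and 56.4 to 62.8 in RGS, and the groups overlapped.

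Collagen and elastin chains are the substrates of the enzymes. Of 9 tested genes of cross-linked substrates, 1 rose and 3 fell (all tested genes, 16.3% and 16.5%). Their median log2 fold change was -0.73, the value of Col1a2 alone, against -0.05 over all tested genes. The summed level of the list was 844 to 1522 CPM in vehicle and 1066 to 1180 CPM in RGS, and the groups overlapped. Col1a2, a chain of type I collagen, had 318, 225 and 188 CPM in vehicle tumors 7, 8 and 9, and 135, 140 and 168 CPM in RGS tumors 10, 11 and 12. RGS 12 came nearest to vehicle 9, and the groups did not overlap. Col1a2 fell by 0.73 on the log2 scale (SE 0.18). Col5a2 fell by 1.16 (SE 0.20) and Col3a1 by 0.90 (SE 0.23). Col5a1, the partner chain of Col5a2 in type V collagen, rose by a log2 fold change of 0.69 ± 0.19 (SE). Col1a1, the other chain of type I collagen, was not called (0.10 ± 0.26, SE, on the log2 scale), and neither were the type IV chains Col4a1 (0.21 ± 0.19) and Col4a2 (0.13 ± 0.21). Eln, the elastin gene, had no count in any tumor.

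Set against Col1a2 within each tumor, the summed lysyl hydroxylases were 1.77, 2.13 and 2.25 times its CPM per kilobase in vehicle tumors 7, 8 and 9, and 5.52, 5.35 and 4.77 times in RGS tumors 10, 11 and 12. For the summed lysyl oxidases the ratio was 2.49, 2.86 and 3.02 in vehicle and 5.79, 5.29 and 4.19 in RGS. All RGS tumors were above all vehicle tumors in both ratios, whose denominator itself fell. Over Col1a1, the summed lysyl oxidases were at 20.3, 23.2 and 19.2 in vehicle and 24.1, 27.1 and 16.2 in RGS, and the groups overlapped. The summed lysyl hydroxylases over Col1a1 were at 14.4, 17.3 and 14.3 in vehicle and 23.0, 27.4 and 18.4 in RGS, with all RGS tumors higher. The separation of the lysyl oxidase ratio thus depended on the collagen chain chosen. The ratios were chosen after the values were seen, so they carry no test.

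**Figure D4:**
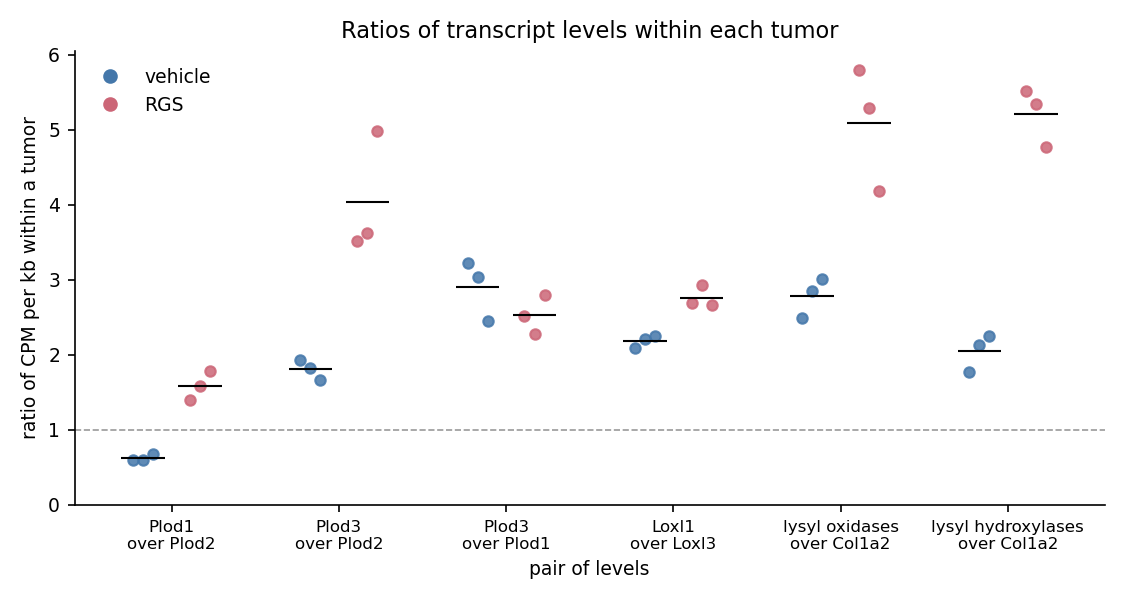
Ratios of CPM per kilobase within each tumor for 6 pairs of levels, with vehicle in blue, RGS in red, group means as black bars and a dashed line at 1. The ratio of Plod1 to Plod2 crosses the line between the groups, while that of Plod3 to Plod1 overlaps.

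Prolyl hydroxylation of collagen, which stabilizes the triple helix, runs beside lysyl hydroxylation in the endoplasmic reticulum. Of its 10 tested genes, 5 rose and 0 fell (all tested genes, 16.3% and 16.5%). The median log2 fold change was 0.18, against -0.05 over all tested genes. P4ha2, a catalytic subunit of prolyl 4-hydroxylase, had 86.5, 83.4 and 82.0 CPM in vehicle tumors 7, 8 and 9, and 235, 251 and 242 CPM in RGS tumors 10, 11 and 12. Its groups were tight and far apart. P4ha2 rose by a log2 fold change of 1.53 ± 0.15 (SE), with an adjusted p of 3.56e-07 (edgeR quasi-likelihood F test, Benjamini-Hochberg). P3h1 and Crtap, which form a complex that 3-hydroxylates proline, rose by 1.17 ± 0.18 and 0.79 ± 0.17 (SE) on the log2 scale. P4hb, the shared beta subunit, rose by 0.59 ± 0.16 (SE).

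Folding, glycosylation and export of procollagen had 6 of 11 tested genes higher and 1 lower (all tested genes, 16.3% and 16.5%). The median log2 fold change of this list was 0.57 (all tested genes, -0.05). Sec24d and Sec23a, parts of the coat that carries cargo out of the endoplasmic reticulum, rose by 1.16 ± 0.16 and 0.73 ± 0.18 (SE) on the log2 scale. The prolyl isomerase genes Fkbp14 and Fkbp7 rose by 1.41 ± 0.29 and 1.01 ± 0.24 (SE). Colgalt1, which adds galactose to hydroxylysine, fell by 1.09 on the log2 scale (SE 0.17). It shares 11.4% of its exon bases with Unc13a on the opposite strand and is therefore uncertain, as are Sec23a (8.91% shared) and Fkbp14 (5.01%).

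Bmp1, the protease that releases procollagen propeptides and activates Lox, had 108, 102 and 111 CPM in vehicle tumors 7, 8 and 9, and 286, 345 and 274 CPM in RGS tumors 10, 11 and 12. The lowest RGS tumor was well above the highest vehicle tumor. Bmp1 rose 2.82-fold, with an adjusted p of 7.73e-07 (edgeR quasi-likelihood F test, Benjamini-Hochberg). In the list of procollagen and pro-lysyl oxidase processing, 3 of 7 tested genes rose and 2 fell (all tested genes, 16.3% and 16.5%). The median log2 fold change of this list was 0.75. Furin, a proprotein convertase, rose by 1.03 ± 0.16 and the enhancer Pcolce by 0.75 ± 0.16 (SE) on the log2 scale. The procollagen N-proteinase Adamts14 fell from 78.3 ± 20.1 to 39.1 ± 9.25 CPM (SD, n = 3), and Pcolce2 fell by 0.59 (SE 0.17) on the log2 scale. Tll2 had no count in any tumor.

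Proteins that hold lysyl oxidases or present their substrates had 5 of 7 tested genes higher and 1 lower (all tested genes, 16.3% and 16.5%). The median log2 fold change of this list was 0.68. Fn1 (fibronectin) rose by 1.08 ± 0.20 and Ccn2 by 1.08 ± 0.17 (SE) on the log2 scale. Efemp2, a fibulin that binds Lox, rose by 0.68 ± 0.19 (SE), uncertain because 4.57% of its exon bases are shared with an opposite gene. Dcn (decorin) rose by 3.24 ± 0.50 (SE) on the log2 scale from 20 to 39 counts per vehicle tumor to 87 to 256 per RGS tumor. Fbln5, which binds Loxl1 on elastic fibers, fell by 1.47 (SE 0.34) on that scale. Fmod, Lum and Mfap4 had no count in any tumor.

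Copper delivery had 1 of 6 tested genes higher and 0 lower (all tested genes, 16.3% and 16.5%). The higher count is near that share and is no result about the list. Its median log2 fold change was -0.08. The called gene was the copper chaperone Atox1 (0.84 ± 0.24, SE, on the log2 scale). Of 3 tested genes for other cross-linkers, 1 rose and 0 fell (all tested genes, 16.3% and 16.5%), with a median of 1.26. Pxdn, which forms sulfilimine bonds in type IV collagen, rose by 1.26 ± 0.17 (SE) on the log2 scale.

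**Figure D5:**
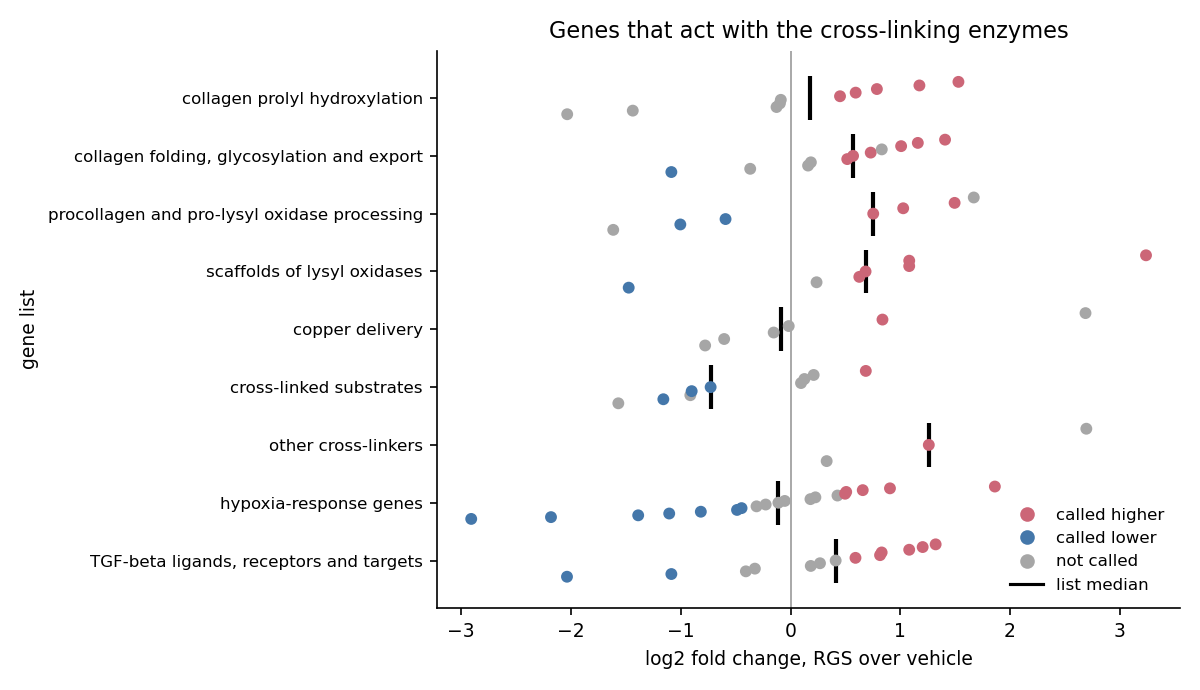
Log2 fold change, RGS over vehicle, of each tested gene in 9 lists of genes that act with the enzymes, colored by call, with the list median as a black line. The substrates' median lies at -0.73, the value of Col1a2, and that of procollagen and pro-lysyl oxidase processing at 0.75.

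Several of the enzymes are known targets of hypoxia signaling, and some respond to TGF-beta. Of 19 tested hypoxia-response genes, 5 rose and 7 fell (all tested genes, 16.3% and 16.5%), with a median log2 fold change of -0.11. Adm had 48.9, 60.8 and 43.9 CPM in vehicle tumors 7, 8 and 9, and 3.88, 6.33 and 10.3 CPM in RGS tumors 10, 11 and 12. The groups were far apart, and Adm fell by 2.91 on the log2 scale (SE 0.29). Pdk1 fell by 1.39 (SE 0.17), Bnip3 by 1.11 (SE 0.19) and Hif1a, with 5.60% of its exon bases shared and so uncertain, by 0.82 (SE 0.19). Pgk1 fell by 0.45 (SE 0.16) with overlapping groups. Eno1 and Aldoa rose by 0.91 ± 0.15 and 0.66 ± 0.15 (SE), and Slc2a1 and Mxi1 by 0.51 ± 0.15 and 0.50 ± 0.16 (SE). The list thus had called genes in both directions.

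Of 13 tested genes for TGF-beta ligands, receptors and targets, 6 rose and 2 fell (all tested genes, 16.3% and 16.5%). The median log2 fold change of this list was 0.41. Smad3 rose by 1.32 ± 0.19, Tgfbi by 1.20 ± 0.19 and Tgfbr2 by 0.82 ± 0.18 (SE) on the log2 scale. Ccn2 belongs to this list and to the scaffold list. The ligand gene Tgfb2 fell by 2.04 (SE 0.52) and Ltbp2 by 1.09 (SE 0.35), the latter uncertain, with 9.34% of its exon bases shared.

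Markers of stromal cells, a common source of these enzymes, were also compared between the groups. Of 8 tested fibroblast markers, 1 rose (Dcn), 2 fell (Pdgfra and Pdgfrb) and 5 were not called. Among all tested genes, 16.3% were called higher and 16.5% lower. The list of 10 shares Dcn, Lum and Fbln1 with the scaffold list, and its most abundant gene was Pdgfra. Its summed level was 317, 237 and 229 CPM in vehicle tumors 7, 8 and 9, and 201, 182 and 191 CPM in RGS tumors 10, 11 and 12, with all RGS tumors lower. Without Pdgfra the sum was 70.2 to 103 CPM in vehicle and 69.4 to 93.8 CPM in RGS, and the groups overlapped. Pdgfra alone fell by 0.70 (SE 0.17) and Pdgfrb by 2.20 (SE 0.38) on the log2 scale. Of 6 tested pericyte and smooth-muscle markers, 2 rose and 4 fell. Rgs5, the most abundant in RGS but not in vehicle, had 26 to 48 counts per vehicle tumor and 4882 to 8728 per RGS tumor, while Acta2 fell by 2.28 (SE 0.19) and Cspg4 by 0.87 (SE 0.21) on the log2 scale. The list's sum was 185 to 257 CPM in vehicle and 448 to 512 CPM in RGS. Without Rgs5 the direction turned, at 184 to 256 CPM in vehicle and 80.2 to 88.8 CPM in RGS. The part of these markers in the enzymes' differences was not tested.

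Of the 4 leukocyte markers only 2 were tested, and these rose, Laptm5 by 2.35 ± 0.17 and Cd53 by 1.41 ± 0.17 (SE) on the log2 scale. Among all tested genes, 16.3% were called higher. Ptprc was at 0 in all tumors and Coro1a had 0 to 20 counts, and neither was tested. The leukocyte list summed to 187 to 248 CPM in vehicle and 920 to 1028 CPM in RGS, most of it Laptm5. Without Laptm5 the sum was 29.5 to 34.1 CPM and 76.5 to 86.4 CPM, and the groups were still apart. Endothelial markers were low, at 2.49 to 4.10 CPM in vehicle and 6.55 to 13.8 CPM in RGS over 7 genes. Without Cdh5, the most abundant by mean CPM over all 6 tumors, the sum was 1.76 to 3.85 CPM and 3.61 to 4.02 CPM, and the groups overlapped. Of the 4 tested, 1 rose, Cdh5, with 7 to 24 counts per vehicle tumor and 36 to 167 per RGS tumor. Pecam1 had at most 22 counts and Kdr at most 6. The 7 macrophage markers had 1 tested gene, Cd68, which was not called, while Adgre1 had 0 counts and Csf1r at most 1 per tumor.

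The 6 T and NK cell markers had no tested gene and at most 0.602 CPM in sum, led by Cd4 with 14 counts in vehicle 9. Of the keratinocyte markers Krt5, Krt14 and Krt1, none had more than 2 counts. The list of 6 had 1 of 2 tested genes higher (all tested genes, 16.3%), Ivl, with 0 counts in every vehicle tumor and 124 to 321 per RGS tumor. The list summed to 0.400 to 1.72 CPM in vehicle and 6.77 to 22.8 CPM in RGS. Without Ivl, the most abundant by mean CPM over all 6 tumors, the groups overlapped. The skeletal-muscle, adipocyte and melanoma lists had no called gene. Their sums were 3.99 to 10.6, 6.72 to 14.8 and 5.26 to 12.7 CPM over the 6 tumors, led by Mylpf, Fabp4 and Mitf. Without Mylpf the skeletal-muscle sum was 2.88 to 4.42 CPM in vehicle and 1.36 to 2.46 CPM in RGS, with all RGS tumors lower. Ckm and Myh4 had 0 counts and Acta1 at most 25, and Plin1 had 0 counts and Adipoq at most 9. The part of leukocyte, endothelial, keratinocyte and skeletal-muscle markers in the enzymes' differences was not tested either.

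The genes most like each enzyme other than Loxl3 were sought among 12238 tested genes with a mean of at least 1 CPM, by Pearson's r of log2 CPM over the 6 tumors. The tumors fall into the treatment groups, so r is given as a description. For Plod1 they were Nbeal2, Arfgap3 and Yipf3 (r of at least 0.999). For Plod3 they were S1pr2, Tnfaip1 and Dmwd (at least 0.998), and for Plod2 Mthfd1l (0.995), Vps8 (0.993) and Ipo5 (0.992). Loxl4 was most like Wee1 (0.998), Thbd (0.997) and Plekha1 (0.997). Nearest to Loxl1 were Dlg5 (0.998), Plxnb2 (0.998) and Macf1 (0.994). At low counts, Lox was most like Cln6 (0.994), Cacna2d1 (0.992) and Prkci (0.990), and Loxl2 like Gxylt1 (0.990), Ptchd1 (0.989) and Sgcb (0.986). None of the nearest genes was itself an enzyme of the family. Many other genes came close to these values. An r of at least 0.95 was reached by 1007 genes for Plod1, 793 for Plod3 and 301 for Loxl1. For Loxl4 there were 177 such genes, for Plod2 90, for Lox 86 and for Loxl2 19.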

How the data were processed

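The deposited table holds the authors' raw counts of reads for 6 tumors, 1 column each, with gene length and position, which place the genes on GRCm38. Paired reads of 150 bases were used, and the submitters' processing notes name cutadapt 1.18, FastQC 0.11.7, STAR 2.7.1a, featureCounts 1.6.4 and mm10. Neither the strand setting nor how multi-gene reads were handled is given in the sources used here. Columns were matched to samples by their names, and all count columns were used.

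Genes with a median of at least 5 counts in at least 1 group were tested with edgeR 4.0.16 in R 4.3.3 (TMM factors, quasi-likelihood F test), with Benjamini-Hochberg adjustment across 15355 genes. The SE is the log2 fold change over the square root of F. A gene was called at an adjusted p under 0.05. On 1 simulated data set, false calls at this threshold exceeded the nominal share with edgeR, more so with DESeq2 and slightly with limma. CPM uses the TMM-scaled library, and CPM per kilobase divides it by the table's gene length. Overlaps come from GENCODE M21. Promoters come from RefSeq, and windows of 1 chromosome were not used here. Replicates within a group differed by more than sampling noise.

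Alternatives were DESeq2 1.42.0, limma 3.58.1 voom with quality weights, RLE and upper-quartile factors, library size only, no filter, filterByExpr, robust dispersions, thinned counts, mitochondrial genes left out, stricter thresholds, and each tumor left out in turn. Named genes were the 8 enzymes, up to 4 called genes in each direction per pathway list by smallest p, list genes with no count, the first 3 markers of each cell type, the 3 genes most like each enzyme other than Loxl3, and overlapping genes. Outside this rule, Mlana, Tyr, Dct, Cd4, Ivl, Mylpf, Unc13a, Pgk1, Col1a1, Col4a1 and Col4a2 were named with their values known. So were Coro1a, Mrc1, C1qa, C1qb and Lyz2. The ratios and the marker sums without their top gene were likewise chosen with the values known. The enzymes and lists were chosen with earlier results of these data known.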

Additional observations from a re-analysis of the deposited data

How the results depend on the processing

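Plod1, Plod3 and Loxl4 kept their direction and their calls in all 16 alternatives run for each, Loxl4 with adjusted p-values from 0.00263 to 0.0415 (edgeR, DESeq2 or limma, Benjamini-Hochberg). Lox, Loxl2 and Plod2 kept their direction and were called in none, but Loxl2 ran from -1.15 (without RGS 10) to -0.10 (without RGS 11). The number of enzymes called higher was 1 when a log2 change of 1 or more in size was also required, since Plod3 lies under it, and 1 enzyme was called lower in all 18 alternatives. With each tumor left out in turn, 2 to 3 were higher. Loxl1 passed with limma voom and quality weights (0.37, adjusted p = 0.0166 by limma with Benjamini-Hochberg) and without vehicle 7. Leaving out 1 tumor gave it log2 fold changes from 0.22 to 0.44, and its adjusted p ran from 0.0166 to 0.490 over its alternatives with edgeR, DESeq2 or limma. Loxl3, never called, turned to 0.035 with limma voom and ran from -0.14 to 0.13 with 1 tumor left out, highest without vehicle 7. The cause was not tested. With library size only, the median log2 fold change of all genes was -0.19 in place of -0.05, and 37.2% of called genes were higher in place of 49.7%. There Loxl1 was at 0.17 and Loxl3 at -0.18, the lowest value of each. Relative to that median, Plod1 was at 1.09, Plod3 at 0.88 and Loxl4 at -1.28, against 1.10, 0.89 and -1.28 with TMM factors. The differences of the family shares kept their sign in the 7 alternatives of each and moved by less than the larger of the group SDs, though that of Plod1 moved from 5.77 to 7.49 when not divided by gene length, more than its RGS SD of 1.38. Lox had 17 to 119 counts per tumor and Loxl2 had 4 to 57, and the part of low counts in their wide intervals was not tested.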
